A study of Caenorhabditis elegans with 4 samples.

Results

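The regions described here are the ZHP-3 peaks that lie near the ends of the Caenorhabditis elegans chromosomes. They are the peaks of the series-level list whose midpoint falls within 250 kb of base 1, or within 250 kb of the last base called on the same chromosome, on the 6 nuclear chromosomes. The rule gave 427 members of 11798 peaks, of which 11796 are nuclear. The 12 windows hold 2.99% of the nuclear sequence spanned by the list and 3.62% of its nuclear peaks.

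ZHP-3 was precipitated with an affinity-purified rabbit polyclonal antibody from chromatin of hermaphrodites of the strain fem-2(b245), genotype fem-2(b245)III, kept at 20 °C. fem-2 encodes a phosphatase of the sex-determination pathway that promotes male development. The worms are labelled as young adults that contain a germline, and the growth protocol describes gravid animals. All samples share this genotype, stage and temperature, with 2 ChIP samples in 1 group and 2 input samples that entered no comparison. Extracts were made from whole adults, so germline nuclei were mixed with those of the body. The labels do not say whether the replicates were separate cultures, so the spread between them may be technical.

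ZHP-3 belongs to the RING-finger proteins that act in meiosis. It loads along the synaptonemal complex, the protein structure that holds paired homologous chromosomes together, and later gathers at crossover sites. Worm chromosomes have no single point centromere. Near 1 end of each lies a pairing centre, a stretch of repeated short motifs bound by a zinc-finger protein, which tethers the chromosome to the nuclear envelope and starts pairing and synapsis. HIM-8 serves the X in this way, ZIM-1 chromosomes II and III, ZIM-2 chromosome V, and ZIM-3 chromosomes I and IV. From general knowledge of the species, the pairing-centre end was taken as the right end of I and V and the left end of II, III and X. Chromosome IV was left out of that comparison, because its assignment was not certain. The files mark no pairing centre, and whether the 250 kb windows contain one was not tested.

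Coordinates are on WormBase WS220, per the file headers. Peaks were not assigned to genes, and no sequence is printed, because no genome or annotation of that build was used here. The 3 peak lists hold no read counts, so the depth behind each peak is unknown. The combined list is the series-level one. It is not independent of the replicates, whose lists held 6537 and 6086 peaks. The caller's score is given as a percentile within its own list. The exception is the value 3100 in the replicates, which many of the strongest peaks share.

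Peaks were somewhat denser at the ends than in the remaining sequence of the same chromosomes. In the combined list the ends held 142 peaks per Mb against 117 elsewhere, a ratio of 1.22. Replicate 1 had 72.7 peaks per Mb at the ends and 64.96 elsewhere. Replicate 2 had 68.7 and 60.4. These densities give replicate ratios of 1.12 and 1.14, on average 1.13 ± 0.012 (SD, n = 2). The excess over 1 was larger than the spread of these ratios. That spread compares 2 lists over the same windows and does not cover differences between ends. A 15.2 kb stretch at the right end of III was cut into many replicate peaks. Counted once per list, it lowered the mean ratio to 1.07 ± 0.013 (SD, n = 2). An exact two-sided sign-flip test of the log2 ratio over the 2 ChIP samples gave p = 0.5, the smallest that 2 samples allow, so this design cannot pass a threshold. Covered bases gave a like ratio, 1.24 in the combined list and 1.19 ± 0.016 (SD, n = 2) in the replicates.

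This excess rested on some chromosomes and ends more than on others. In the combined list, replicate 1 and replicate 2, the ratio was below 1 on I (0.910, 0.952 and 0.969). It was also below 1 on IV (0.847, 0.751 and 0.857). On V it was 1.04, 0.924 and 1.20. It was above 1 in every list on II (1.37, 1.15 and 1.07), III (1.32, 1.22 and 1.27) and X (1.94, 1.76 and 1.396). Counts per end ranged from 23 to 53 in the combined list, with a median of 32, from 9 to 33 in replicate 1 and from 10 to 33 in replicate 2. In 8 of 12 ends the combined density was above that of the remaining sequence, against 7 in replicate 1 and 5 in replicate 2. Leaving out the left end of X took the replicate 1 ratio from 1.12 to 1.04. Leaving out the right end of III took the replicate 2 ratio to 1.04 as well. In the combined list the ratio stayed between 1.16 and 1.26 whichever end was left out.

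**Figure D1:**
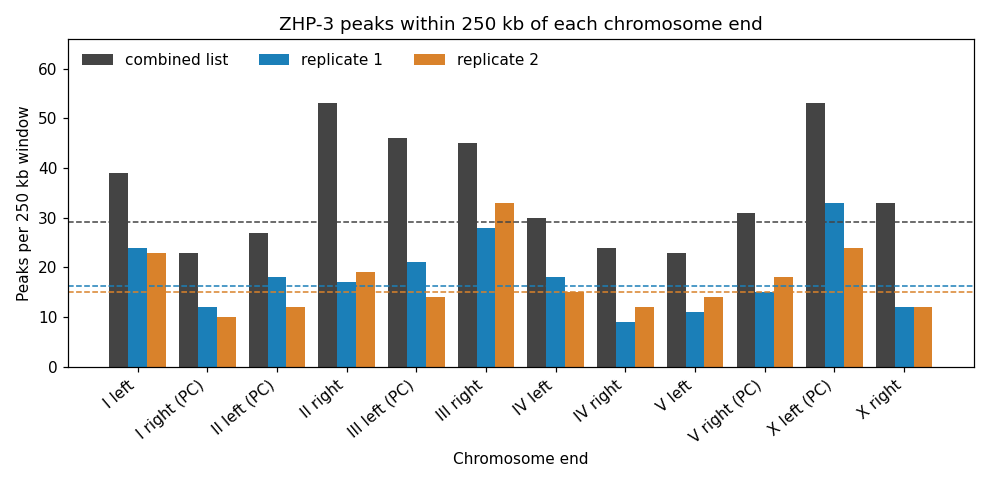
Peaks in the 250 kb at each of the 12 chromosome ends (bars, number of peaks) in the combined list and in both replicate lists; PC marks the end taken as the pairing-centre end. Dashed lines give each list's mean per 250 kb in the remaining sequence, 29.2, 16.2 and 15.1 peaks; the bars of I left, II right, III right and X left stand above the line of their own list in all 3 lists.

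The left end of X held 53 peaks in the combined list, 33 in replicate 1 and 24 in replicate 2. The combined count was the highest of the 12 ends together with II right, and the replicate 1 count the highest alone. In replicate 2 the right end of III held more, 33. When X was cut into 70 consecutive windows of 250 kb counted from this end, no other window held more peaks in the combined list or in replicate 1, and 1 did in replicate 2. The median window of X held 22 combined, 12 replicate 1 and 12.5 replicate 2 peaks. The neighbouring 250 kb held 22, 14 and 19 peaks. The crowding was therefore not shared by the next window in the combined list or replicate 1, while in replicate 2 the gap was 24 against 19.

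The replicates differed at this end. Of its 53 combined peaks, 20 (37.7%) overlapped both replicates, 12 overlapped replicate 1 alone, 1 replicate 2 alone and 20 (37.7%) neither. Among all nuclear peaks these shares were 37.7%, 12.3%, 8.29% and 41.7%. The densest 10 kb of this end (57779 to 66018) held 8 peaks, of which 5 were found in replicate 1 alone. The right end of X held 33 combined peaks and 12 in each replicate, which is the median of X windows in replicate 1. X had the highest ratio of end to remaining density, 1.94 in the combined list, 1.76 in replicate 1 and 1.396 in replicate 2. Its remaining sequence was the sparsest of any chromosome in every list, with 88.7, 51.0 and 51.6 peaks per Mb. The right end of X, at 48 peaks per Mb in both replicates, lay below this density and lowered the replicate ratios. The ends of III were denser than those of X in every list. They held 182 against 172 peaks per Mb in the combined list, 98 against 90 in replicate 1 and 94 against 72 in replicate 2.

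The right end of II also held 53 combined peaks, but 17 in replicate 1 and 19 in replicate 2. Of the 53, 13 overlapped both replicates (24.5%, exact Clopper-Pearson 95% interval 13.8% to 38.3%), the lowest share of the 12 ends. That interval includes the 37.7% of all nuclear peaks. Neither replicate was overlapped by 30 (56.6%), against 41.7% of all nuclear peaks. The median peak width of this end, 268 bp, was the lowest of the 12. Among 61 windows of II counted from this end, 1 held more combined peaks, against 15 in replicate 1 and 8 in replicate 2.

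Chromosome III was dense at both ends in the combined list, with 46 peaks on the left and 45 on the right. The replicates were not alike on the 2 sides. The right end held 28 and 33 replicate peaks, and 6 and 3 of 55 windows exceeded it. The left end held 21 and 14 peaks, and 19 and 38 windows exceeded it. At the left end 25 of 46 combined peaks (54.3%) overlapped neither replicate, against 41.7% of all nuclear peaks. A single 10 kb stretch there (96220 to 105965) held 11 peaks, the most of any end, with 8 in neither replicate and a median score percentile of 23.8. The next 250 kb inward from the left end was fuller in every list, with 56 combined, 44 replicate 1 and 41 replicate 2 peaks.

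The left end of I held 39 combined, 24 replicate 1 and 23 replicate 2 peaks, above the median windows of I in all 3 lists (35, 19 and 16.5). The right end of I was among the emptiest windows of that chromosome, with 23, 12 and 10 peaks. Of 60 windows, 50, 50 and 53 held more. Chromosome IV had 30 combined peaks at its left end and 24 at its right end. In the replicates the left end held 18 and 15 peaks and the right end 9 and 12. IV was the chromosome with the lowest ratio of end to remaining density, 0.847 in the combined list and 0.80 ± 0.075 (SD, n = 2) in the replicates. Chromosome V had 23 combined peaks at its left end, with 11 and 14 in the replicates, and 31 at its right end, with 15 and 18. Across the 12 ends the counts of the replicates had a Pearson correlation of 0.79 and a Spearman correlation of 0.73. These values describe lists from 1 experiment that share chromosomes.

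Peak positions are shown by distance from the end and by the replicates that share them. Spacing between peaks was uneven. It was not compared with that of other windows or of randomly placed peaks. The longest gap without a peak in a window ran from 19.0 kb at the left end of X to 62.0 kb at the right end of X (17544564 to 17606588). The left end of I had a gap of 51.1 kb (128886 to 179956). Joining peaks under 1000 bp apart left 284 intervals at the ends.

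**Figure D2:**
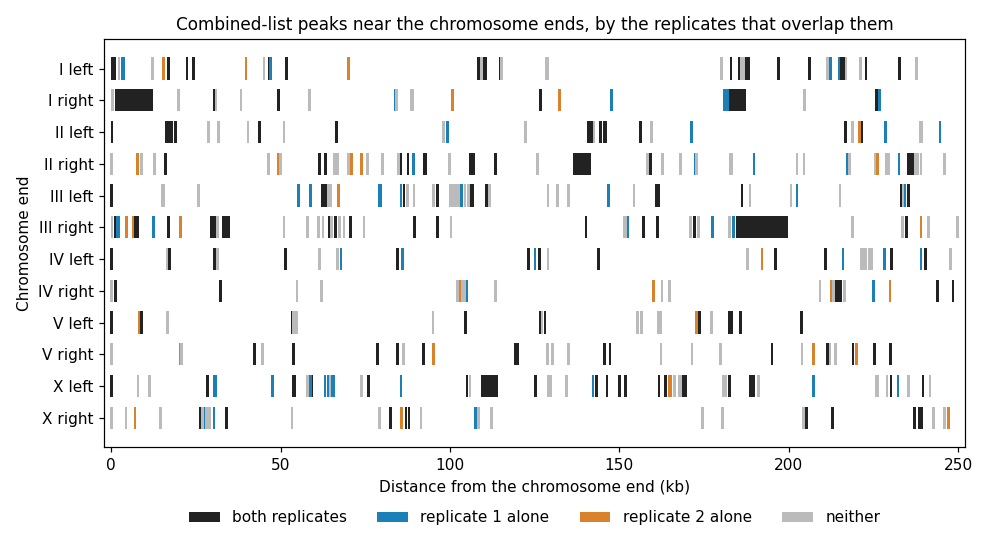
Each bar is a combined-list peak placed by its distance from the chromosome end in kb (horizontal axis) for the 12 ends (rows), coloured by the replicates that overlap it; narrow peaks are drawn wider than they are so that they can be seen. Of 427 peaks, 149 overlap both replicates and 193 neither, and the wide dark blocks are the 11.2 kb peak at I right and the 15.2 kb peak at III right.

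The outermost peaks differed between left and right ends. At the left ends of all 6 chromosomes, every list had a peak that began with base 1. In the combined list these peaks were 210 to 483 bp wide, at score percentiles of 59.7 to 96.0. Each overlapped a peak of replicate 1 and of replicate 2 that also started at base 1. Among 4272 other nuclear peaks in this range of percentiles, 80.6% overlapped both replicates. The replicate 1 peaks were at percentiles of 55.9 to 92.1 and the replicate 2 peaks at 86.4 to 98.3. The lowest of the 6 was that of III in all 3 lists, and the highest was that of I.

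At the right ends the replicates had no such peak. The last combined peak of each chromosome was 300 to 776 bp wide and sat at score percentiles of 65.6 to 94.0, yet none of the 6 overlapped a peak in either replicate. It lies at the last base by construction, since chromosome lengths were taken from it. The files state no lengths, so it is not known whether these peaks stop at the true end or run past it, and distances on the right are to the last called base. Among 3359 other nuclear peaks of the combined list in the same range of percentiles, 29 (0.863%) were in neither replicate and 86.5% were in both. The right ends therefore differ from the left ends in whether the replicates overlap the outermost combined peak. The combined list was called with MACS v2 and the replicates with MACS, so caller and signal cannot be told apart here. That the combined list reaches the last base on the right is fixed by the rule and is no result.

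The outermost replicate peaks on the right stopped short of the last base. On III they ended 0.921 kb before it in replicate 1 and 0.802 kb in replicate 2, on IV 0.84 and 0.819 kb, and on I 1.09 kb in both. On II the distances were 15.9 and 7.5 kb, on V 42.4 and 20.1 kb, and on X 26.0 and 6.89 kb. Within 5 kb of the ends, 7 of 9 combined peaks on the left overlapped both replicates, against 2 of 11 on the right. Over all nuclear peaks the share was 37.7%. The 5 kb counts include the outermost peaks just described, 6 on each side, so they are no separate result. Chromosome ends carry telomere repeats. What the sequence under these peaks is, and whether input reads pile up there, was not tested.

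**Figure D3:**
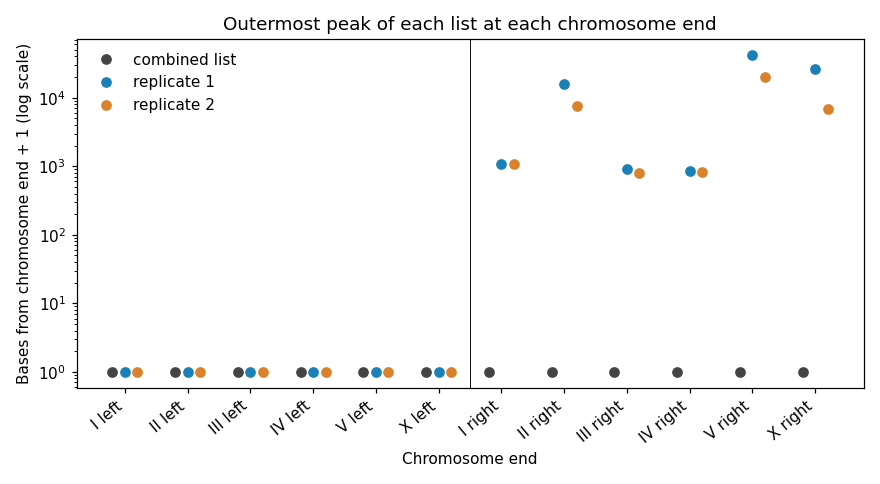
Distance in bases, plus 1, from the chromosome end to the outermost peak (log scale), for left ends and right ends and for each list. All lists reach base 1 on the 6 left ends, while on the right ends the replicate peaks stop 802 to 42368 bases short of the last combined peak.

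Peak widths at the ends were close to those elsewhere. The median was 312 bp at the ends and 318 bp elsewhere in the combined list, 371.5 against 406 bp in replicate 1 and 382.5 against 405 bp in replicate 2. By end the combined medians ran from 268 bp at II right to 373 bp at II left. Members just inside and just outside the 250 kb bound both lay at the right end of III. The inner was a 150 bp peak in neither replicate at 249.8 kb, and the outer was a 1279 bp peak in both at 250.7 kb.

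Bases covered varied more between ends than median widths, also without the broad peaks. Peaks covered 214.4 kb of the windows, 7.15% of their bases, against 5.76% elsewhere. By end the covered share ran from 3.20% at V left to 14.9% at III right. The 12 peaks of 1500 bp or more held 25.5% of the covered bases. All 12 overlapped both replicates, as did 94.7% of the 471 broad peaks elsewhere. Some of these overlaps were thin, since replicate peaks covered from 11.6% of a broad peak in replicate 1 and from 12.1% in replicate 2. They lay at 6 of the 12 ends and made up 2.81% of the members, against 4.14% of the peaks elsewhere. In the replicates the share of broad peaks went the other way, 5.5% at the ends against 4.70% elsewhere in replicate 1 and 5.34% against 4.34% in replicate 2. Without the 12 broad peaks the ends were covered to 5.33%, from 3.0% at I right to 8.33% at X left, and III right to 6.37%.

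The right end of III held 4 of the broad peaks. The widest, of 15.2 kb (13584086 to 13599258), made up 40.8% of the bases covered at that end. Replicate 1 split the same stretch into 8 peaks and replicate 2 into 14, covering 96.7% and 91.2% of it. Closer to the end lay a pair of broad peaks (13748605 to 13751062 and 13752618 to 13754680), each a single peak at a score of 3100 in both replicates. The highest-scoring peak of the whole combined list also lay in this window (13643215 to 13643940), 139.8 kb from the end and 726 bp wide. With the widest stretch counted once, this end held 21 peaks in replicate 1 and 20 in replicate 2.

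The right end of I held an 11.2 kb peak (15060193 to 15071393) that ended 1.05 kb from the last base. It was a single peak in each replicate, which covered 99.5% of it, and held 48.8% of the bases covered at this sparse end. The array of ribosomal RNA genes lies at this end of chromosome I. Repeated sequence can collect reads from several copies, and its part in this peak was not tested. A second broad peak of 4.26 kb (14885122 to 14889382) was whole in replicate 1 and split into 3 in replicate 2. Without its broad peaks, the end was covered to 3.0%, the lowest of the 12.

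At the right end of II the highest-scoring peak was also the widest, 5.399 kb (15137583 to 15142981), at the score of 3100 in both replicates. The left end of X held a 5.184 kb peak (109128 to 114311), single in replicate 1 and cut in 2 in replicate 2, and a 1.84 kb peak (188260 to 190103). Its highest-scoring peak lay between them (142740 to 143726), at the 98.9 percentile and at 3100 in both replicates. The left ends of I and IV, both ends of V and the right ends of IV and X had no broad peak. The widest peak at IV left (222036 to 223110) was in neither replicate, at the 32.7 percentile.

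Overlap of end peaks with the replicate lists was within counting error of that of all nuclear peaks. Of the 427 members, 149 (34.9%, exact interval 30.4% to 39.6%) overlapped both replicates, against 37.7% of all nuclear peaks. Replicate 1 was overlapped by 47.5% of members, against 50% of all nuclear peaks, and replicate 2 by 42.2%, against 46%. Neither replicate was overlapped by 45.2% of members, against 41.7%. These intervals cover counting error alone, and peaks that cluster are not independent. The members' shares are near the background and are no result about the ends.

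Members had a median score percentile of 45.8 in the combined list, against 50.5 elsewhere. In the replicate lists the end peaks had medians of 48.6 against 50.1 and 53.8 against 49.9, so the lists did not share a direction. In the combined list, 47.5% of members lay in the higher-scoring 50% of the list. Within that upper part 68.0% of members overlapped both replicates, against 71.5% elsewhere. Within the lower part 4.9% did, against 4.0%. By end the median percentile ran from 37.1 at X right to 59.8 at V left. The share in both replicates was 27.3% at X right and 47.8% at V left. It did not follow the median at every end, as IV right, at 47.1, had 25.0% in both and X left, at 44.8, had 37.7%. Of the members, 44 (10.3%) were among the top 10% of scores, with at least 1 at every end. All but 1 of the 44 overlapped both replicates, the exception being the outermost peak at I right. The same share over all peaks in the top 10% was not worked out, so this count is no result about the ends.

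The highest-scoring peak overlapped both replicates at all 12 ends. On the left ends these were at 22193 to 22507 on I, 155877 to 156418 on II, 234977 to 235601 on III, 51189 to 51574 on IV and 126465 to 126968 on V. On the right ends not yet named they were at 14945387 to 14946075 on I, 17461303 to 17461607 on IV, 20778107 to 20778982 on V and 17479264 to 17480752 on X. Apart from II right, III right and X left, their percentiles lay between 92.1 and 98.5. They sat 22.2 to 238.1 kb from the end, so the strongest peak of a window was at no end its outermost one. How often the top peak of other windows overlaps both replicates was not worked out. The count of 12 is therefore no result about the ends.

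A comparison that leaves out the combined list looked at the replicates alone. Of the replicate 1 peaks at the ends, 151 of 218 (69.3%, exact interval 62.7% to 75.3%) overlapped a replicate 2 peak, against 73.4% of all its peaks. Of the replicate 2 peaks, 167 of 206 (81.1%, 75.0% to 86.2%) overlapped a replicate 1 peak, against 81.7%. Both shares of all peaks lie inside the intervals of the end peaks.

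Pairing-centre ends were then set against the opposite ends of the same 5 chromosomes. Together they held 180 combined peaks against 193, a ratio of 0.93. Replicate 1 had 99 against 92 peaks and replicate 2 had 78 against 101. The replicate ratios, 1.08 and 0.77, lay on either side of 1, with a mean of 0.92 ± 0.21 (SD, n = 2). The difference was smaller than the spread between the replicates. With the 15.2 kb stretch at the right end of III counted once, the ratios were 1.16 and 0.886, on average 1.03 ± 0.197 (SD, n = 2). An exact two-sided sign-flip test of the log2 ratio over the 2 samples gave p = 1, where the smallest possible is 0.5.

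The chromosomes went in different directions. X had more peaks at its pairing-centre end in every list, 53 against 33 in the combined list, 33 against 12 in replicate 1 and 24 against 12 in replicate 2. V did too, with 31 against 23, 15 against 11 and 18 against 14. I had fewer in every list, with 23 against 39, 12 against 24 and 10 against 23. III had fewer in the replicates, 21 against 28 and 14 against 33, and 46 against 45 in the combined list. With the wide stretch counted once, III had 21 against 21 and 14 against 20. II had 27 against 53 in the combined list, 18 against 17 in replicate 1 and 12 against 19 in replicate 2. The pairing-centre end was thus the higher in 3 of 5 chromosomes in the combined list and replicate 1, and in 2 of 5 in replicate 2.

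**Figure D4:**
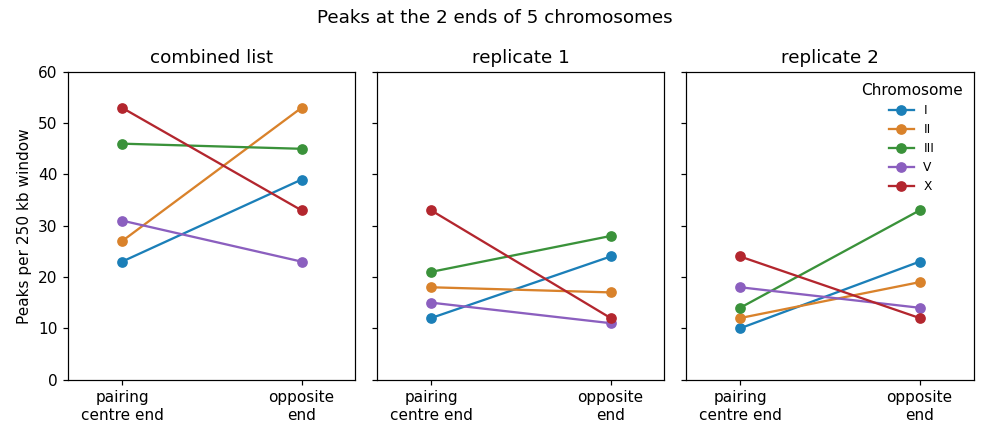
Peaks per 250 kb window at the pairing-centre end and the opposite end of 5 chromosomes, joined by a line for each chromosome, in the 3 lists. Lines of X and V fall to the opposite end in all 3 panels and the line of I climbs, so the chromosomes share no direction; X goes from 53 to 33 in the combined list and I from 23 to 39.

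The other measures gave no common direction over the chromosomes either, though summed cover was lower at the pairing-centre ends in all 3 lists. Covered bases were 94.8 kb at the pairing-centre ends and 97.9 kb at the opposite ends in the combined list, with 3 of 5 chromosomes higher at the former. In the replicates the cover was 59.8 against 61.7 kb and 48.2 against 59.2 kb. Median width was 318.5 against 308 bp, with 2 of 5 chromosomes wider at the pairing-centre end. The replicates went the other way, with 355 against 418 bp and 372 against 393 bp. Both replicates were overlapped by 35.6% (28.6% to 43.0%) of peaks at the pairing-centre ends and by 34.7% (28.0% to 41.9%) at the opposite ends. Replicate 1 was overlapped by 51.7% against 43.5%, and replicate 2 by 40.6% against 43.5%. By chromosome, the share in both replicates was higher at the pairing-centre end on II (40.7% against 24.5%) and X (37.7% against 27.3%). It was lower on I (30.4% against 46.2%), III (26.1% against 35.6%) and V (45.2% against 47.8%).

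Left and right ends as such were close in number, with 218 and 209 combined peaks. Replicate 1 had 125 on the left and 93 on the right, and replicate 2 had 102 and 104. The left end held more peaks on 4 of 6 chromosomes in the combined list and in replicate 1, and on 3 of 6 in replicate 2.

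With distance from the end, peak density did not fall off in a single slope. The 250 kb windows held 142 combined peaks per Mb, the next 250 kb inward 127, the third 114 and the fourth 140. The replicate means over the same steps were 70.7 ± 2.83, 74.7 ± 5.19, 64.3 ± 6.13 and 72.5 ± 0.24 peaks per Mb (SD, n = 2). In both replicates the outermost 250 kb were less dense than the 250 kb next to them. Replicate 1 held 72.7 against 78.3 peaks per Mb and replicate 2 held 68.7 against 71.0, while the combined list went the other way. This difference was not tested. Covered shares were 7.15% and 7.14% in the first and second step. The first 50 kb held 145 combined, 73.3 replicate 1 and 71.7 replicate 2 peaks per Mb. Within the outer 1 Mb that was profiled, the combined list had its highest 50 kb value, 173 peaks per Mb, in the last step, between 950 and 1000 kb.

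**Figure D5:**
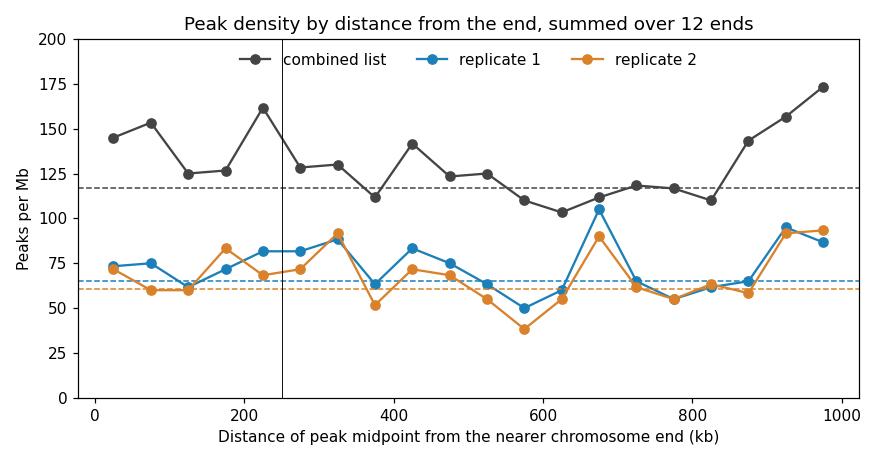
Peaks per Mb in 50 kb steps by distance of the midpoint from the nearer end (kb), summed over 12 ends, for the 3 lists; the vertical line marks 250 kb and dashed lines give the density outside the end windows (117, 64.96 and 60.4 peaks per Mb). Values inside 250 kb run from 125 to 162 in the combined list, and steps farther in reach as high or higher.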

How the data were processed

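ZHP-3 ChIP-seq of 2 samples was analysed from 3 deposited peak lists. Peaks were called with MACS (replicates) and MACS v2 (combined list), per the source column of the files. Coordinates are on WS220 per the file headers, and the submitters' processing notes name BWA and ce10. How the caller was set, which control it had and which reads made the combined list is not given in the sources used here. Scores that the authors deposited for each peak have no stated scale and were used to rank peaks within a list, with tied scores at their mean rank. The first and last base of each peak are used as the authors deposited them.

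The last base of a chromosome was the last base in the combined list, for all 3 lists. Windows were assigned by midpoint, and overlaps counted from 1 bp. Percentages carry exact Clopper-Pearson 95% intervals, which cover counting error only. Named peaks are the outermost, highest-scoring and widest of each window; others were named after their values were seen. The members and measures were chosen with earlier results of these data known. Ratios over the 2 ChIP samples had an exact sign-flip test, added after the data were seen; all else is described without tests. Window and overlap functions were tested on simulated data. Python 3.11.15, NumPy 2.4.6, pandas 2.3.3, SciPy 1.17.1 and matplotlib 3.10.9 were used. Alternatives are in the closing section. Input samples were not used here.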

Additional observations from a re-analysis of the deposited data

How the results depend on the processing

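No paired analysis was possible because the replicate numbers tie each ChIP sample to an input, and inputs were not used here. Windows of 100 and 500 kb held 179 and 808 peaks, as their size dictates, with density ratios of 1.27 and 1.16 and covered shares of 6.71% and 7.14%. The higher-scoring 50% of the list gave 203 peaks, a density ratio of 1.16, 68.0% in both replicates and 4.99% covered. The density ratio was 1.18 without the peaks at the first and last bases and 1.15 with peaks under 1000 bp apart joined. A replicate list by itself gave 206 to 218 peaks, density ratios of 1.12 to 1.14, covered shares of 3.93% to 4.43% and pairing-centre to opposite ratios of 0.77 to 1.08. Overlap with 1 replicate alone was 42.2% to 47.5%, and a 50% reciprocal overlap gave 28.3% in both.

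The pairing-centre ratio of 0.93 crossed 1 with windows of 500 kb (1.003), as a median over chromosomes (1.02), in replicate 1 (1.08) without chromosome II (1.09) and as a mean of the replicates with the widest stretch at III right counted once (1.03, with a density ratio of 1.07). It was 0.91 with the right end of IV as its pairing-centre end, 0.97 with the left, and 0.79 without chromosome X. Peaks in both replicates, an alternative chosen after seeing the data like those on single chromosomes, the widest stretch or broad peaks, numbered 149, with a density ratio of 1.12 and 4.33% covered. All end peaks without the broad ones covered 5.33%. The causes were not tested. The density ratio stayed above 1 in all alternatives run. Unknown depth limits any reading of peaks in 1 list alone.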
